A study of Mus musculus with 16 samples.

Results

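The genes that encode RNA polymerase II, its general transcription factors and Mediator were followed in mouse ES cells that lack, or can be made to lack, a subunit of SAGA or ATAC. Both are histone-acetylating coactivator complexes that act at promoters. Members were chosen by name, under a rule that uses no measured value but was set with earlier results of these data known. It takes protein-coding genes whose symbol names a polymerase II subunit (Polr2a to Polr2m), a subunit of TFIIA, TFIIB, TFIIE, TFIIF or TFIIH (Gtf2), or a numbered Mediator subunit (Med). The rule gave 54 genes, namely 13 of polymerase II, 12 of general transcription factors and 29 of Mediator, out of 32826 genes listed in any of the 3 deposited tables, 19052 of them protein-coding. All 54 passed the filter on low counts in every comparison.

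Newly synthesized RNA was labelled with 4-thiouridine (4sU) for 15 min, pulled down and sequenced. In project 1, AID-Tada3 cells, in which a subunit of the acetyltransferase module common to SAGA and ATAC carries an auxin-inducible degron (AID), were set against WT cells. Project 2 set AID-Yeats2 cells (degron on an ATAC subunit) and Supt7l-/- cells (knockout of a subunit of the SAGA core) against WT cells, and project 3 set AID-Zzz3 cells (degron on another ATAC subunit) against WT cells. Each mutant line was sequenced as 2 clones, and each project had its own 2 WT 4sU libraries, while total RNA was sequenced only from the 2 WT lines of project 1. All lines, WT and Supt7l-/- included, are E14 cells that had auxin for 24 h in serum medium to which LIF and the inhibitors PD0325901 and CHIR99021 were added. The WT libraries are not clones of a common kind: replicate 1 is plain WT and replicate 2 is WT with overexpressed Tir1/BirA (Tir1 being the receptor that auxin needs to degrade a degron protein). Whether the mutant clones express Tir1/BirA is not given in the sources used here, and how much of each tagged protein remained was not measured by these libraries.

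RNA polymerase II transcribes the protein-coding genes of the nucleus. TFIIA and TFIIB secure the TATA-binding protein on the promoter and link it to the polymerase, TFIIF escorts the polymerase, TFIIE brings in TFIIH, and TFIIH opens the DNA and phosphorylates the tail of Polr2a. Mediator bridges activators and the polymerase through its head, middle and tail modules, and a dissociable kinase module built on Med12 and Med13, or on their paralogues Med12l and Med13l, holds Cdk8 or Cdk19 with cyclin C.

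Mouse gene counts summed to 8268061 to 15994518 per 4sU library and to 4903998 and 6378707 in total RNA. The 54 members took 0.353% to 0.415% of the counts of a 4sU library. The lowest member of a 4sU library held 14 to 44 counts and the median member 183 to 374, and the lowest was Med11, Polr2i or Gtf2h4. Levels below are CPM, a gene's counts relative to the size of its library after TMM scaling, which takes most genes as unaltered. The targeted genes were still transcribed: Tada3 stood at 12.2 and 10.5 CPM in AID-Tada3 cells and at 31.3 and 23.9 CPM in WT cells, Yeats2 at 109 and 188 CPM in AID-Yeats2 cells and at 242 and 256 CPM in WT cells, and Zzz3 at 288 and 299.8 CPM in AID-Zzz3 cells and at 430.3 and 448 CPM in WT cells. For Supt7l the knockout clones had 8.87 and 14.1 CPM, against 13.9 and 14.3 CPM in WT cells, and whether its counted reads cover the deleted part is not given in the sources used here, so this level does not check the label. Markers of embryonic stem cells summed to 2473 to 3036 CPM in 4sU libraries with 8 or 9 of 10 at 1 CPM or more. Markers of primitive endoderm, trophectoderm, fibroblasts and neural cells summed to 5.32 to 60.4 CPM per list.

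Libraries fell into 2 kinds along the distal part of chromosome 14, which bears on the members located there, Med4 and Gtf2f2. Over 86 to 90 genes that start beyond 70 Mb and have at least 5 CPM, the median log2 ratio to the Tir1/BirA WT library of the same project was 0.57 and 0.54 in the Supt7l-/- clones, 0.50 in plain WT of project 2 and 0.50 in plain WT of project 3. Near 0 were the AID-Tada3 clones (0.04 and 0.01), the AID-Yeats2 clones (0.00 and 0.03), the AID-Zzz3 clones (-0.03 and 0.01) and plain WT of project 1 (0.02). Genes that start before 60 Mb had medians between -0.09 and 0.00 in these 11 libraries. The limits of 60 and 70 Mb were chosen after the values were seen. Med4 is therefore given below with and without each WT library. In AID-Tada3 cells its log2 fold change of -0.09 (adjusted p = 0.89) was -0.17 without plain WT and 0.02 without Tir1/BirA WT, and neither was called.

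**Figure D1:**
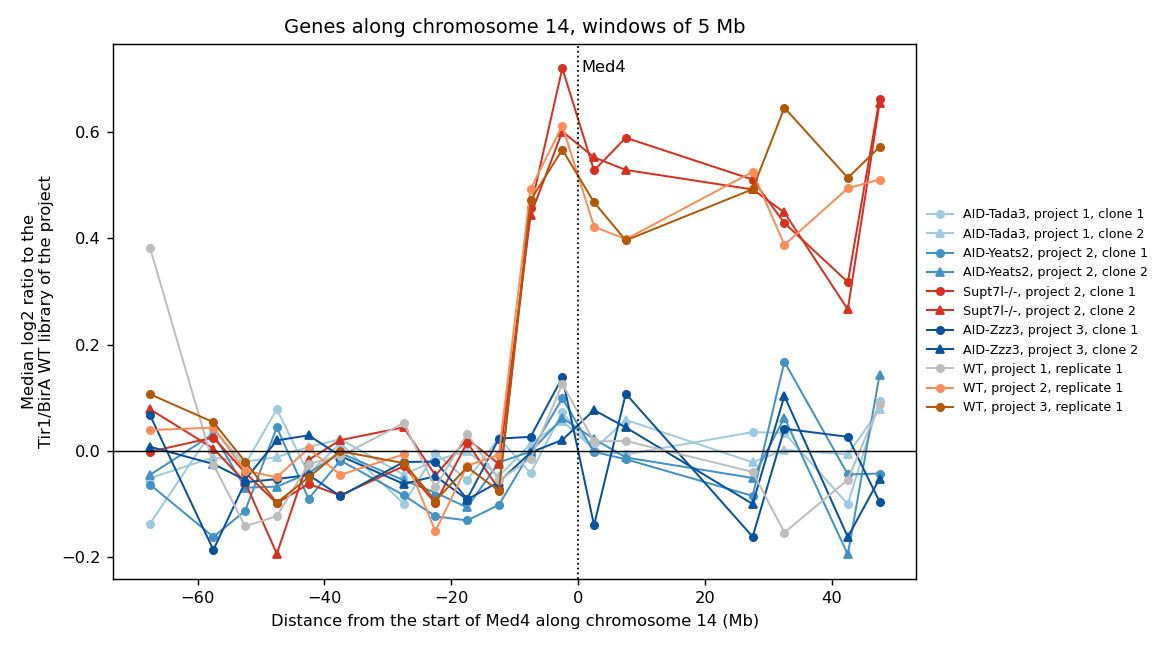
Median log2 ratio of 4sU RNA to the Tir1/BirA WT library of the same project (y axis) for genes in windows of 5 Mb along chromosome 14, by distance from the start of Med4 in Mb (x axis), windows with fewer than 5 genes left out. The Supt7l-/- clones and plain WT of projects 2 and 3 run at 0.50 to 0.57 over the distal part as a whole, whereas the AID clones and plain WT of project 1 have whole-region medians between -0.03 and 0.04 and single windows scattered around 0.

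The promoters of 5 members are shown first, so that Med26, Med4 and Med12l, which have a call, can be set beside Polr2a and Gtf2f2. Gtf2e2 is not shown. Of the 54 members, 46 matched the RefSeq promoter table (build GRCm38.p6, the assembly named mm10 in the processing notes) with 54 windows that run from 250 bases before the annotated start to 50 after it. Each window is given 5′ to 3′ on the gene's strand, and capitals mark matches to 6 words on either strand. These were TATAAA for the TATA box, the word CCAAT of the box so named, then GGGCGG for the GC box, CCGGAA for sites of ETS factors, AAGATGGCG for YY1 and the palindrome bound by NRF1. Polr2a encodes the catalytic subunit and lies at chr11:69758584-69758883 on the minus strand. Med26 (chr8:72548261-72548560, minus strand) and Med4 (chr14:73509799-73510098, plus strand) encode subunits of the middle module. Gtf2f2 (chr14:76010816-76011115, minus strand) encodes a TFIIF subunit, and Med12l (chr3:59006728-59007027, plus strand) a paralogue of the kinase module subunit Med12.
Polr2a: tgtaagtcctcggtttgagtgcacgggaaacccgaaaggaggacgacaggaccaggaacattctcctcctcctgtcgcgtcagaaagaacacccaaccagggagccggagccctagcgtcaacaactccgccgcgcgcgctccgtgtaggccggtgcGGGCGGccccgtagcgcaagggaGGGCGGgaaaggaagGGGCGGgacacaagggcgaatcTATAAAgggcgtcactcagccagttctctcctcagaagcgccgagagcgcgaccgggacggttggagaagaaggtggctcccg
Med26: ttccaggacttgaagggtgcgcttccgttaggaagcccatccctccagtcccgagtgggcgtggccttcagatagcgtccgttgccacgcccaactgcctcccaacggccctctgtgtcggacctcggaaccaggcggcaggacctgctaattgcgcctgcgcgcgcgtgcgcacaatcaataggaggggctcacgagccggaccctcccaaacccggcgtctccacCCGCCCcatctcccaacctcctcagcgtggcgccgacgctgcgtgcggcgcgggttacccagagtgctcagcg
Med4: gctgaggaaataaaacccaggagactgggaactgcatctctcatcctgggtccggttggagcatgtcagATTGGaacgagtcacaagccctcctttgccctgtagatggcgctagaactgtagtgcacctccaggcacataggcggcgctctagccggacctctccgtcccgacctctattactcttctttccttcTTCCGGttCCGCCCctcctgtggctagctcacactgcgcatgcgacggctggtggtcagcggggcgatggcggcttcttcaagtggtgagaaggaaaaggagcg
Gtf2f2: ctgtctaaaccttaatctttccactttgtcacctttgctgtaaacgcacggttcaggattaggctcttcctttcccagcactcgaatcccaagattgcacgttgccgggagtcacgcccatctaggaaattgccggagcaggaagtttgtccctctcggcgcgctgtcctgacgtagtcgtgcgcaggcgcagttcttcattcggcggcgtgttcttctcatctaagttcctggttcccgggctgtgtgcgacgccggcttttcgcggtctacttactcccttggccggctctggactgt
Med12l: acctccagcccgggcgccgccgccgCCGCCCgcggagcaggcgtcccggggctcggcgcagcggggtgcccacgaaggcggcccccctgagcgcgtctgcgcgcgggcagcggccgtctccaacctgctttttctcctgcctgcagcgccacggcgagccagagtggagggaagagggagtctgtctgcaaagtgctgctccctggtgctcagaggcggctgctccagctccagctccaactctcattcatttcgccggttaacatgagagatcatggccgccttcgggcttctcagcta

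The Polr2a window held 1 TATA box and 3 GC boxes, that of Med26 a single GC box, that of Med4 a CCAAT box, a GC box and an ETS match, and that of Med12l a GC box, while the Gtf2f2 window held none of the 6 words. ETS words were found in 46.3% of member windows and in 14.9% of all 32851 promoter windows, and GC boxes in 59.3% and 35.7%. TATA boxes stood in 13% of member windows and 13.6% of all windows, CCAAT in 33.3% and 37.4%, the YY1 word in 3.7% and 1.4%, and the NRF1 word in 0% and 0.971%. Member windows had a median GC content of 58.3% and a median of 22 CpG, against 52.7% and 7 over all windows. A GC-rich word is found more often in GC-rich windows, and a match is no more than these letters.

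In WT cells the level of new RNA differed widely between members once divided by the length of the union of annotated exons. These means are over the 6 WT 4sU libraries, which come from 3 separately scaled tables. Whether reads of introns were counted is not given in the sources used here, and their part in this order was not tested. Gtf2f2, for one, spans 113929 bases, of which 1467 lie in exons. Gtf2f2, the TFIIF subunit, was highest at 226 ± 49.4 CPM per kb (SD, n = 6). Next came Med27 at 52.0 ± 2.63, Gtf2e2 of TFIIE at 51.5 ± 2.89, Med6 of the Mediator head at 50.5 ± 5.80, Med26 at 47.7 ± 2.94, the kinase module subunit Med13l at 46.1 ± 4.83 and the TFIIH subunit Gtf2h1 at 43.4 ± 3.46 CPM per kb (SD, n = 6 each). Neighbours in this order of 6 differ by less than their SDs. Polr2a had 29.7 ± 1.44 CPM per kb, and Polr2b, its partner at the active centre, had 24.5 CPM per kb. At the low end were the head subunit Med11 at 1.99 ± 0.55, Med12 at 1.63 ± 0.18 and the TFIIH subunit Gtf2h4 at 1.1 ± 0.18 CPM per kb.

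The 6 WT libraries also show how far members vary without any mutation. This spread mixes counting error, 3 separately scaled projects and plain with Tir1/BirA WT, which were not told apart. The coefficient of variation was 2.99% for Gtf2b, 3.49% for the tail subunit Med23, 4.65% for Polr2b and 4.83% for Polr2a. It was 57.5% for Med12l, the highest of the 54, then 27.6% for Med11, 22.3% for Polr2l, 22.2% for Polr2e, 21.8% for Gtf2f2 and 20.1% for Med4. Med11 and Polr2l had mean levels of 2.08 and 5.05 CPM, at which counting error is larger. Med12l had 118 CPM in plain WT of project 1, while the other 5 WT libraries had 33.3 to 47.9 CPM. Gtf2f2 and Med4 share the direction of the chromosome 14 split in projects 2 and 3. Gtf2f2 had 423 and 425.7 CPM in plain WT and 298 and 297 CPM in Tir1/BirA WT. For Med4 the log2 ratio of plain to Tir1/BirA WT was 0.23 in project 2 and 0.72 in project 3. The distal median was 0.50 in each.

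**Figure D2:**
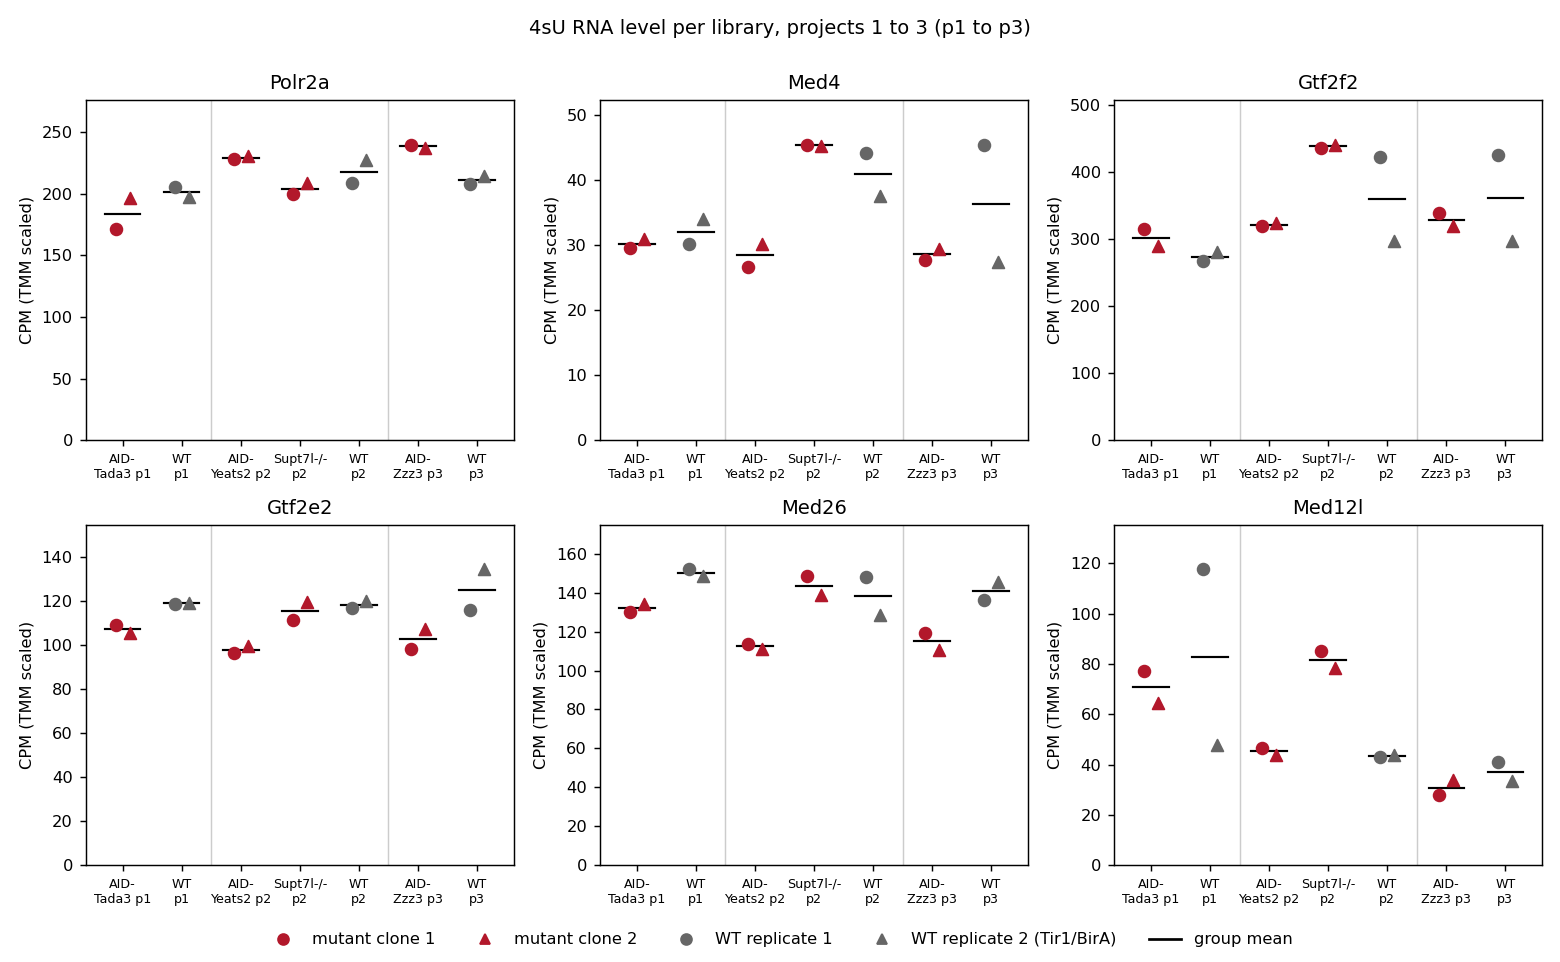
Level of 4sU RNA in CPM (y axis) in each library of each group (x axis) for 6 members, with circles for clone or replicate 1, triangles for clone or replicate 2 and a bar at the mean of both. Med26 and Gtf2e2 lie below WT in both AID-Yeats2 clones, Med12l lies above WT in both Supt7l-/- clones, and Gtf2f2 and Med4 split the WT libraries of projects 2 and 3.

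In AID-Tada3 cells no member was called higher or lower. The median log2 fold change of the 54 was -0.02, against 0.00 over all 15099 genes tested, and 50 of 54 lay within 0.25 of 0 on the log2 scale. For 46 of 54 the 95% interval lay within a 1.5-fold change either way. edgeR's quasi-likelihood test with Benjamini-Hochberg adjustment, which gives every adjusted p below unless stated, called 0.0331% of all genes in either direction. DESeq2 also called 0 members, and 3 had an unadjusted p under 0.05 in edgeR, where 1208 of all 15099 genes did.

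Those 3 were Gtf2e1, Med14 and Med26. Gtf2e1, the large subunit of TFIIE, had 49.2 and 52.3 CPM in the AID-Tada3 clones, against 63.2 and 57.7 CPM in WT, a log2 fold change of -0.25 ± 0.10 (SE, adjusted p = 0.56). Both clones lay below both WT libraries. Med14, the backbone of Mediator, stood at 102 and 107 CPM in the clones and at 77.8 and 95.3 CPM in WT (0.27 ± 0.11, adjusted p = 0.56). Med26, which hands elongation factors to the polymerase, stood at 130.2 and 134 CPM in the clones and at 152 and 148 CPM in WT (-0.18 ± 0.08, adjusted p = 0.62). Polr2a levels of 171 and 197 CPM in the clones, against 206 and 197 CPM in WT, meet at 197 CPM (-0.13 ± 0.09, adjusted p = 0.77, 95% interval -0.34 to 0.08). Without the Tir1/BirA WT library Gtf2e1 (-0.30) and Med12l (-0.72) were called lower and Med14 (0.44) higher, and without plain WT the sole call was Med12l, then higher (0.56). The direction of Med12l in AID-Tada3 cells thus depends on which WT library it is set against.

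AID-Yeats2 cells had 3 members lower and none higher, all with a change of under 1.5-fold on the TMM scale: the middle module subunits Med4 and Med26 and the small TFIIE subunit Gtf2e2. Over all 14513 genes tested, 3.32% were called lower, and 3 of 54 members is 5.56%. The median of the members was -0.02 and that of all genes 0.00. By unadjusted p under 0.05 there were 5 of 54, against 3097 of all 14513 genes. On the log2 scale 49 of 54 members lay within 0.25 of 0.

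Med26 stood at 114 and 111 CPM in AID-Yeats2 clones and at 148 and 129 CPM in WT. The groups do not overlap, with a log2 fold change of -0.30 ± 0.08 (adjusted p = 0.043). Gtf2e2, which helps TFIIE to recruit TFIIH, stood at 96.3 and 99.8 CPM in the clones and at 117 and 120.2 CPM in WT (-0.27 ± 0.08, adjusted p = 0.047). Again both clones lay below both WT libraries, and the WT libraries were close to each other. Neither gene lies on chromosome 14. The call of Med26 was not made without plain WT (-0.20, adjusted p = 0.089), and that of Gtf2e2 was made without either WT library (-0.30 and -0.25).

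Med4 stood at 26.6 and 30.2 CPM in AID-Yeats2 clones and at 44.2 and 37.5 CPM in WT (-0.53 ± 0.12, adjusted p = 0.013). In the same contrast the 129 tested genes of distal chromosome 14 had a median log2 fold change of -0.23, with 9 called lower and 2 higher, against -0.01 for the 322 proximal genes. Without plain WT the change of Med4 was -0.41 (adjusted p = 0.019) and without Tir1/BirA WT it was -0.63 (adjusted p = 4.5e-05). The part of the chromosome 14 split in the change of Med4 was not tested. Gtf2f2, on the same stretch, stood at 319 and 324 CPM in the clones and at 423 and 298 CPM in WT (-0.16 ± 0.16, adjusted p = 0.64), with the clones between both WT libraries. It was called lower without Tir1/BirA WT (-0.39, adjusted p = 6.8e-07) and was not called without plain WT.

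Leaving out either AID-Yeats2 clone left 0 of the 3 calls in a fit with a lone mutant library, at log2 fold changes of -0.43 and -0.61 for Med4, -0.31 and -0.28 for Med26, and -0.24 and -0.29 for Gtf2e2. DESeq2 called Med4 alone (adjusted p = 0.032), with adjusted p of 0.12 for Med26 and 0.17 for Gtf2e2. Polr2a stood at 228 and 230.5 CPM in AID-Yeats2 clones and at 209 and 227 CPM in WT (0.07 ± 0.07, adjusted p = 0.60, 95% interval -0.08 to 0.22), a sign that turned under spike-in scaling (-0.42).

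In Supt7l-/- cells Med12l was called higher and no member lower, where 1.32% of all genes were called higher. Med12l, the paralogue of the kinase module subunit Med12, stood at 85.0 and 78.4 CPM in the knockout clones and at 42.9 and 43.7 CPM in WT (0.92 ± 0.09, adjusted p = 2.7e-04). The knockout clones stood apart from WT, and the libraries of each group were close to each other. The AID-Yeats2 clones of the same project stood at 46.8 and 43.8 CPM, near WT. Med12l without either Supt7l-/- clone was still called (0.85 and 0.97), and DESeq2 called it too (adjusted p = 1.5e-08).

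The level of Med12l ranged widely across the series, and this bears on its call. In project 1 the AID-Tada3 clones had 77.4 and 64.4 CPM and their WT 118 and 47.9 CPM, so the clones lie between both WT libraries (-0.23 ± 0.57, adjusted p = 0.95). AID-Zzz3 clones had 27.9 and 33.8 CPM and their WT 41.0 and 33.3 CPM. In a joint fit of all 14 4sU libraries, which takes in the spread of the project 1 WT pair, the Supt7l-/- change of 0.91 had an adjusted p of 0.31. Under spike-in scaling it was 0.55 (adjusted p = 0.16). Med12l spans 312858 bases and overlaps other listed genes on the opposite strand. Its 6 tested neighbours within 700000 bases had log2 fold changes of -0.77 to 0.32, and none was called.

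The other members of the kinase module were not called in Supt7l-/- cells. Med13l stood at 769 and 745 CPM in the clones and at 830 and 738 CPM in WT (-0.05 ± 0.07, adjusted p = 0.74), and Med12 differed by -0.12 ± 0.15 in log2 units (adjusted p = 0.73). Polr2b stood at 144 and 134 CPM in Supt7l-/- clones and at 121 and 119 CPM in WT, with both clones above both WT libraries (0.21 ± 0.07, adjusted p = 0.14), but the sign turned under spike-in scaling (-0.15). Without plain WT 3 members were called higher, namely Med12l (0.90), Polr2b (0.23) and, on distal chromosome 14, Gtf2f2 (0.56). Polr2k, a small subunit common to polymerases I, II and III, stood at 3.87 and 6.0 CPM in the clones and at 6.77 and 7.80 CPM in WT (-0.55 ± 0.24, adjusted p = 0.24). Med4 stood at 45.4 and 45.2 CPM in the clones and at 44.2 and 37.5 CPM in WT (0.15 ± 0.11, adjusted p = 0.53), with 0.27 without plain WT and 0.04 without Tir1/BirA WT, and none of these passed. Polr2a levels were 199.8 and 208 CPM in the clones, against 209 and 227 CPM in WT (-0.09 ± 0.07, adjusted p = 0.51, 95% interval -0.24 to 0.05).

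AID-Zzz3 cells had no member called in either direction, where 0.984% of all genes were called. DESeq2 called 0 as well, and 2 members had an unadjusted p under 0.05 in edgeR, where 1869 of 14529 genes did. Those 2 members were Med26 and Gtf2e2, which had also been lower in AID-Yeats2 cells. Med26 stood at 119 and 111 CPM in AID-Zzz3 clones and at 136 and 145 CPM in WT (-0.29 ± 0.10, adjusted p = 0.28). Gtf2e2 stood at 98.4 and 107 CPM in the clones and at 116 and 134 CPM in WT (-0.28 ± 0.11, adjusted p = 0.35). In both genes the clones lay below both WT libraries of project 3. These are other libraries than those of project 2, but carry the same 2 labels, plain WT and Tir1/BirA WT. Both genes were picked by p on these values, so the lack of overlap adds no support. The third by p, the head subunit gene Med11, stood at 4.07 and 2.37 CPM in the clones and at 2.13 and 1.31 CPM in WT (0.85 ± 0.41, adjusted p = 0.44).

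Polr2a levels in the AID-Zzz3 clones were 239.7 and 237 CPM, above the 207 and 215 CPM of WT (0.17 ± 0.09, adjusted p = 0.49, 95% interval -0.04 to 0.39), and spike-in scaling turned the sign (-0.19). Med4 stood at 27.6 and 29.4 CPM in the clones, near the Tir1/BirA WT library at 27.4 CPM and below plain WT at 45.3 CPM (-0.35 ± 0.22, adjusted p = 0.57). The 129 distal chromosome 14 genes had a median of -0.27 in this contrast. Without Tir1/BirA WT Med4 was the 1 member called lower (-0.67, adjusted p = 0.024), and without plain WT its sign turned (0.05, adjusted p = 0.94).

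**Figure D3:**
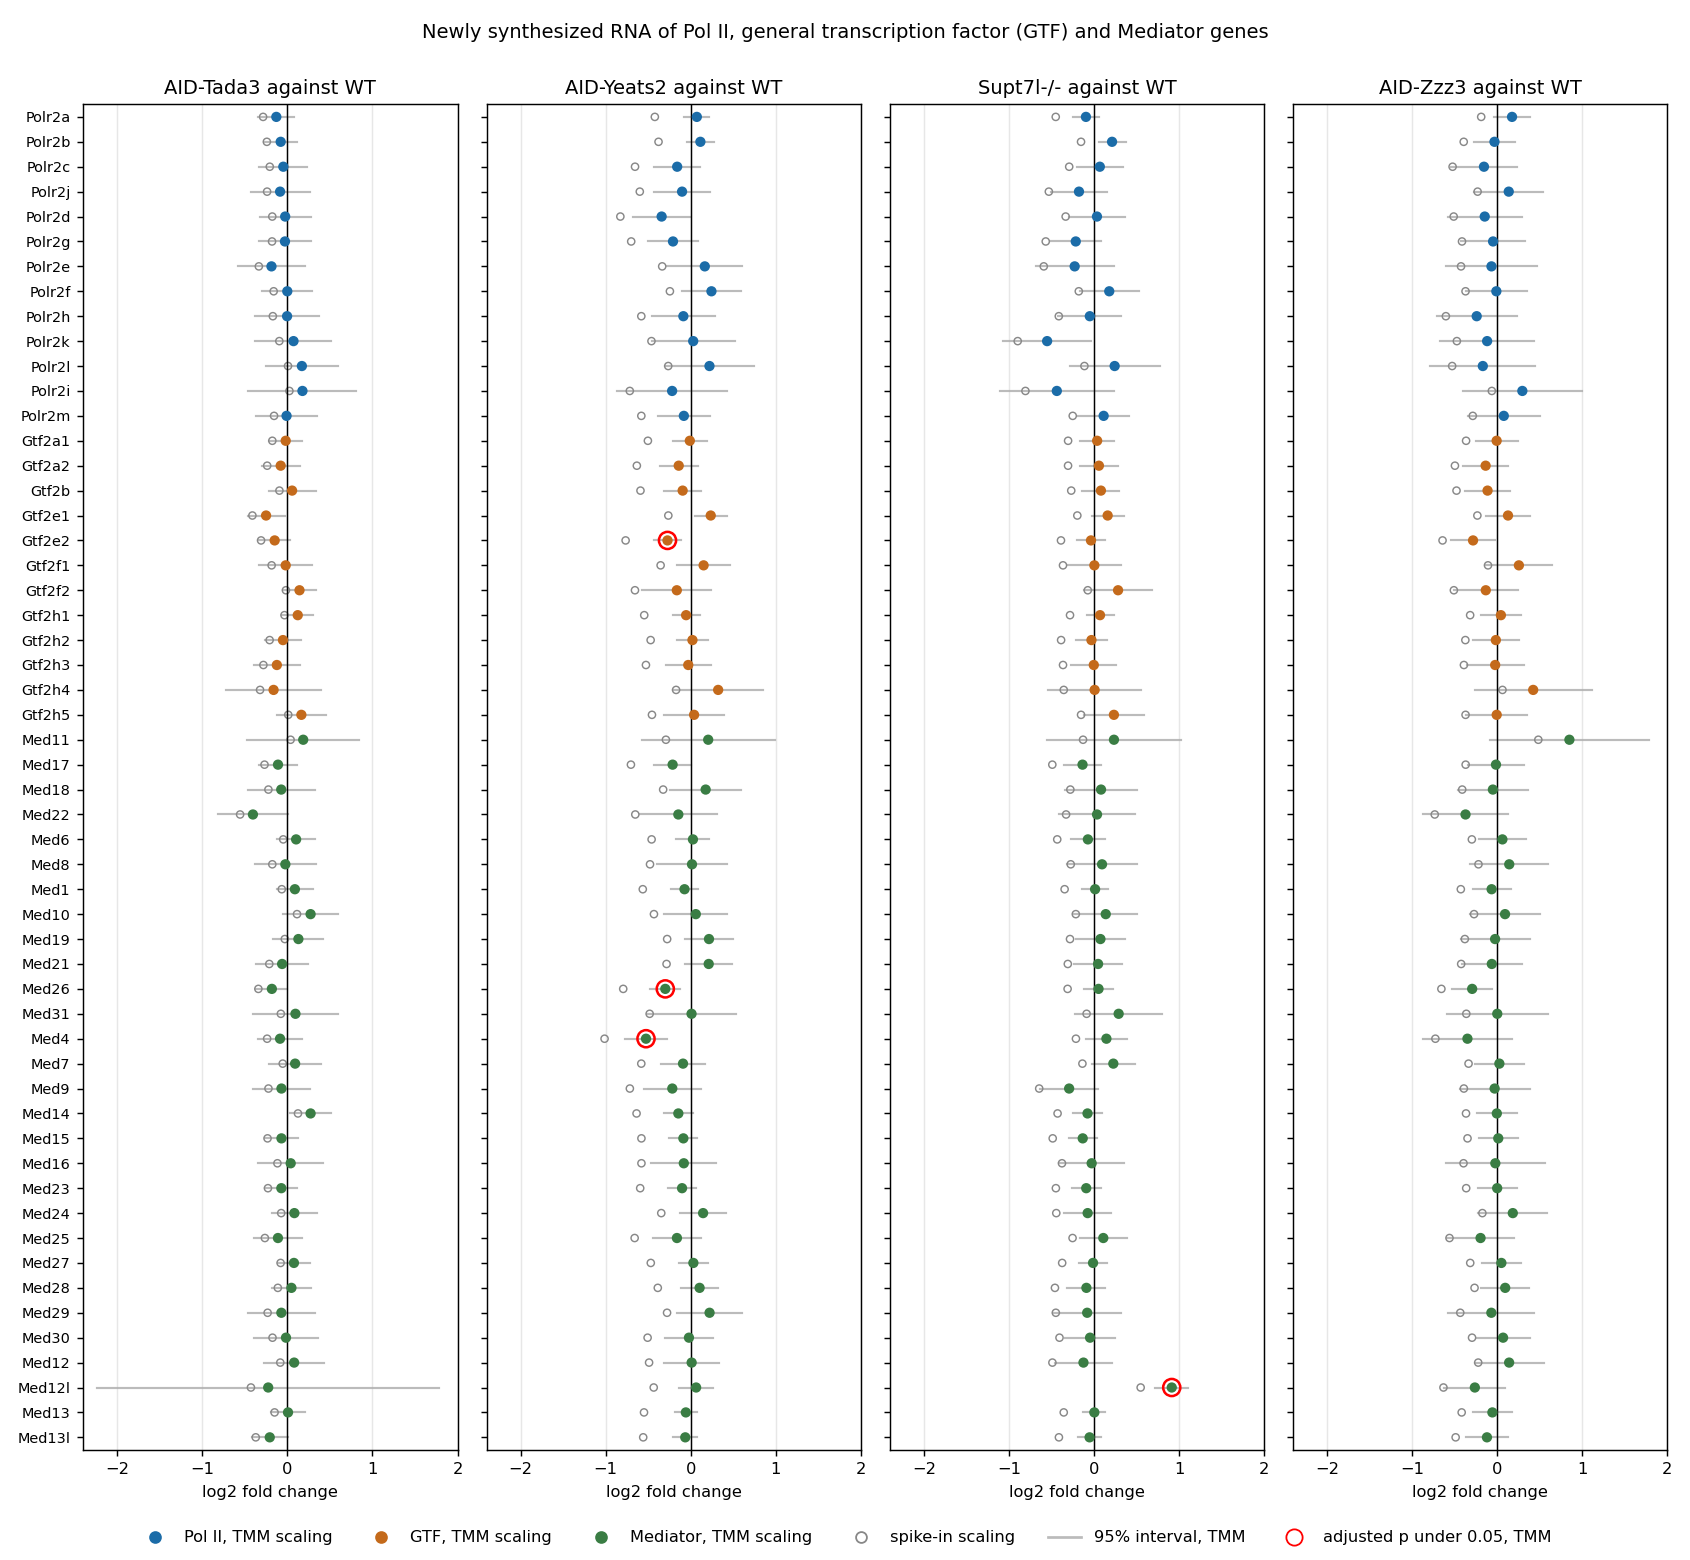
log2 fold change (x axis) of each of the 54 members (rows, grouped by role) in the 4 mutants against the WT libraries of their project, with filled points for TMM scaling, grey lines for its 95% interval, open grey points for spike-in scaling and red rings for an adjusted p under 0.05 with TMM scaling. Filled points lie near 0 in each mutant, 4 of them ringed, while the open points are shifted to the left of the filled ones.

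Spike-in scaling keeps a change in the overall amount of labelled RNA that TMM scaling removes. Mouse RNA per spike-in was 89.6% of WT in AID-Tada3 cells, 71.0% in AID-Yeats2 cells, 78.0% in Supt7l-/- cells and 77.7% in AID-Zzz3 cells, as means of 2 libraries. The ratio of mouse to spike-in effective library size was 6.43 and 7.20 in AID-Tada3 clones and 8.13 and 7.10 in WT, which overlap. It was 4.26 and 5.07 in AID-Yeats2 clones and 4.48 and 5.77 in Supt7l-/- clones, against 6.55 and 6.58 in their WT. In AID-Zzz3 clones it was 10.5 and 10.6, against 14.2 and 12.9 in WT. With spike-ins the median log2 fold change was -0.18 for members and -0.16 for all genes in AID-Tada3 cells, -0.52 and -0.50 in AID-Yeats2 cells, -0.35 and -0.36 in Supt7l-/- cells, and -0.38 and -0.36 in AID-Zzz3 cells. Members thus shifted about as far as genes in general, and single genes are read relative to that shift.

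Counts of calls followed the same background. In AID-Yeats2 cells 13 of 54 members (24.1%) were lower, where 23.5% of all genes were. They comprised 8 of 29 Mediator genes, 3 of 12 general transcription factors and 2 of 13 polymerase II subunits, which were the stalk subunits Polr2d (-0.83 ± 0.27, adjusted p = 0.021) and Polr2g (-0.70 ± 0.26, adjusted p = 0.040). In AID-Zzz3 cells 15 members (27.8%) were lower, where 24.7% of all genes were, and these were 9 Mediator genes, 5 general transcription factors and Polr2b (-0.39 ± 0.11, adjusted p = 0.037). In AID-Tada3 cells Med13l alone was lower (-0.37 ± 0.10, adjusted p = 0.025), where 1.48% of all genes were. In Supt7l-/- cells 0 were lower, where 4.45% of all genes were. There 8 members had an unadjusted p under 0.05, as did 3442 of 14513 genes.

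These spike-in counts rest on single libraries. With each library left out in turn, the count lay between 0 and 3 in AID-Yeats2 cells, being 3 without clone 2 and 0 without clone 1 or either WT library. It was 1 without clone 1, 5 without clone 2, 7 without plain WT and 20 without Tir1/BirA WT in AID-Zzz3 cells. In Supt7l-/- cells it was 13 without clone 2 and 0 otherwise, and in AID-Tada3 cells 4 without Tir1/BirA WT and 0 otherwise. Med4, Med26 and Gtf2e2 remained lower in AID-Yeats2 cells under both scalings, at -1.01, -0.79 and -0.76 with spike-ins. Med26 (-0.66 ± 0.11, adjusted p = 0.012) and Gtf2e2 (-0.64 ± 0.11, adjusted p = 0.014) were lower in AID-Zzz3 cells with spike-ins.

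**Figure D4:**
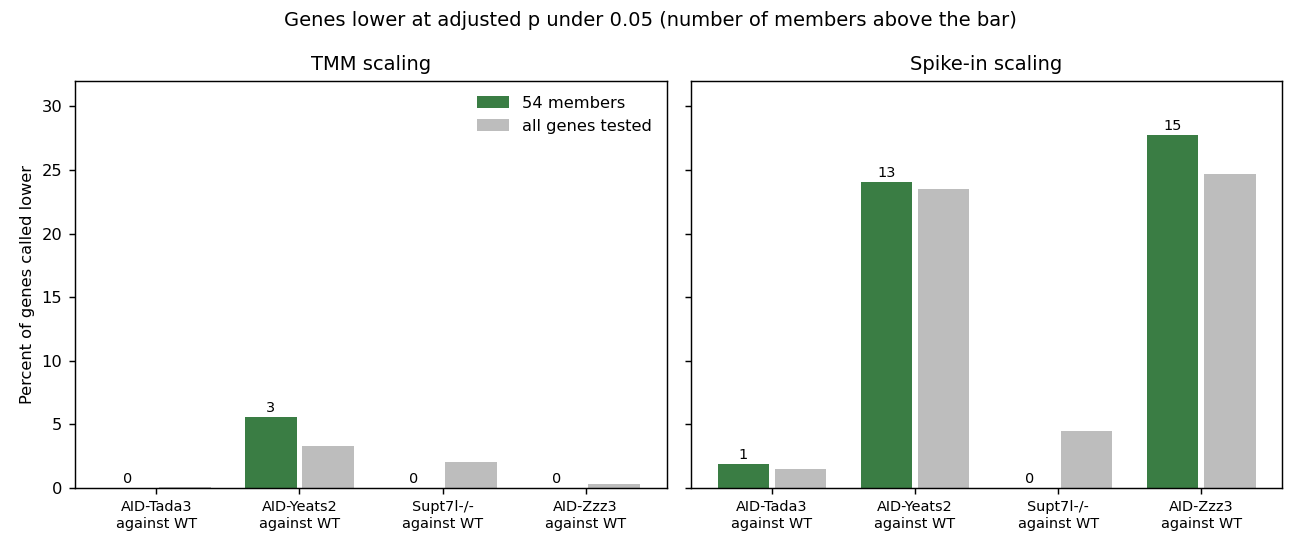
Percent of genes called lower at an adjusted p under 0.05 (y axis) in each mutant against WT (x axis), for the 54 members (green) and all genes tested (grey), with TMM scaling on the left and spike-in scaling on the right, and the number of members above each bar. With spike-ins the members stand at 24.1% in AID-Yeats2 cells and 27.8% in AID-Zzz3 cells, close to the 23.5% and 24.7% of all genes.

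The authors' deposited table gives, at an adjusted p under 0.05, 21 members lower in AID-Yeats2 cells, 11 in AID-Zzz3 cells and 0 in AID-Tada3 and in Supt7l-/- cells, and none higher. Of the genes with an adjusted p in the authors' deposited table, 42.9% of members and 48.9% of all genes were lower in AID-Yeats2 cells, 24.4% and 35.7% in AID-Zzz3 cells, 0% and 8.86% in Supt7l-/- cells, and 0% and 0.0559% in AID-Tada3 cells. An adjusted p is absent from the authors' deposited table for 5 members in AID-Yeats2, 9 in AID-Zzz3 and 11 in Supt7l-/- cells. The median of the members in the authors' deposited table was -0.11 in AID-Tada3, -0.44 in AID-Yeats2, -0.29 in Supt7l-/- and -0.31 in AID-Zzz3 cells. In the authors' deposited table Med4, Med26 and Gtf2e2 stand at -0.88, -0.73 and -0.69 in AID-Yeats2 cells, and Med12l at 0.50 in Supt7l-/- cells with an adjusted p of 0.060.

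The 2 mutants of project 2 were compared directly, since both of their changes are measured against the same WT libraries. In AID-Yeats2 cells 4 members were lower than in Supt7l-/- cells and none was higher, where 7.32% of all genes were lower, and 4 of 54 is 7.41%. Med12l stood at 46.8 and 43.8 CPM in AID-Yeats2 clones and at 85.0 and 78.4 CPM in Supt7l-/- clones (-0.85 ± 0.09, adjusted p = 4.9e-05). Med26 stood at 114 and 111 CPM in AID-Yeats2 clones and at 149 and 139 CPM in Supt7l-/- clones (-0.35 ± 0.08, adjusted p = 0.010). Gtf2e2 stood at 96.3 and 99.8 CPM in AID-Yeats2 clones and at 111 and 119.9 CPM in Supt7l-/- clones (-0.24 ± 0.08, adjusted p = 0.049). In each of the 3 genes the clones of both lines do not overlap, which adds no support, as the test picked them on these values.

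Med4 stood at 26.6 and 30.2 CPM in AID-Yeats2 clones and at 45.4 and 45.2 CPM in Supt7l-/- clones (-0.67 ± 0.12, adjusted p = 0.0015). These lines fall on opposite sides of the chromosome 14 split. The 129 distal genes had a median of -0.55 in this contrast, with 41 called lower and 2 higher, and the 322 proximal genes one of -0.02, with 24 lower and 28 higher. Gtf2f2 had 319 and 324 CPM in AID-Yeats2 clones and 436 and 441 CPM in Supt7l-/- clones (-0.45 ± 0.16, adjusted p = 0.13). The part of the split in either gene was not tested. Polr2a stood 0.17 ± 0.07 higher on the log2 scale in AID-Yeats2 cells (adjusted p = 0.12), which narrowed to 0.03 with spike-ins. With each of the 4 mutant libraries left out in turn, 2 members were called, Med12l and Med4 each time.

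The changes in both ATAC lesions, each against its own WT, were also compared in a joint fit. No member differed between AID-Yeats2 and AID-Zzz3 cells, and neither did any of the 15426 genes tested (0%). No member had an unadjusted p under 0.05, against 378 genes in all, and DESeq2 called 0 members and 3 genes. The smallest p among members was that of Med21, a middle module subunit, with a difference of 0.28 ± 0.18 (95% interval -0.11 to 0.67). Polr2i differed by -0.51 ± 0.39 (95% interval -1.33 to 0.31), Polr2b by 0.15 ± 0.12 (-0.10 to 0.39) and Polr2a by -0.10 ± 0.11 (-0.34 to 0.14). For 30 of 54 members the 95% interval of the difference lay within 1.5-fold either way, so for the other 24 a difference of that size could not be told from none.

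The largest differences of the module lay between kinds of RNA in WT cells. In 4sU RNA, set against total RNA of the same 2 lines, 12 members were higher and 31 lower, where 30.4% of all genes were higher and 33% lower. Their median was -0.84 on the log2 scale, against 0.05 over all 14494 genes. These ratios are relative to the bulk of genes, and ribosomal RNA was depleted from total RNA only. Long genes such as Med13 and Med13l were high in new RNA, and most genes of small polymerase subunits were low.

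Among polymerase II subunits 10 of 13 were lower in new RNA and 2 higher. Polr2i, a small subunit that guards fidelity, had 2.26 and 2.78 CPM in 4sU RNA and 61.3 and 60.8 CPM in total RNA (-4.60 ± 0.20, adjusted p = 1.1e-05). Polr2e, common to all 3 polymerases, had 12.1 and 13.1 CPM in 4sU RNA and 135 and 142 CPM in total RNA (-3.46 ± 0.16). Polr2m, whose product binds the polymerase and keeps initiation factors off it, followed at -2.97, Polr2h at -2.80, the stalk subunit Polr2g at -2.30, Polr2f at -2.01 and the assembly subunit Polr2j at -1.5. Polr2b stood at 116 and 111 CPM in 4sU RNA and at 317 and 407 CPM in total RNA (-1.67 ± 0.17, adjusted p = 1.2e-04).

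Polr2a did not share this pattern. It stood at 211 and 205 CPM in 4sU RNA and at 241 and 179 CPM in total RNA, groups that overlap (-0.02 ± 0.17, adjusted p = 0.94, 95% interval -0.42 to 0.39), and its sign turned when some single libraries were left out. Polr2l and Polr2k, subunits common to all 3 polymerases and among the shortest genes, were higher in new RNA. Polr2l stood at 6.97 and 6.34 CPM in 4sU RNA and at 1.94 and 2.62 CPM in total RNA (1.53 ± 0.34, adjusted p = 0.0061). In total RNA Polr2l was the lowest member of both libraries, at 10 and 17 counts, so its ratio rests on few reads. Polr2k was at 0.99 ± 0.28 (adjusted p = 0.017).

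General transcription factors divided within complexes. Of TFIIF, Gtf2f2 was higher in new RNA (1.68 ± 0.14, adjusted p = 5.7e-05) and Gtf2f1, its larger partner, lower (-2.53 ± 0.15, adjusted p = 2.2e-05). Gtf2f1 had 20.1 and 17.9 CPM in 4sU RNA and 108 and 111 CPM in total RNA. Gtf2a1 (1.11) and Gtf2e2 (0.97) were higher, while their partners Gtf2a2 (-0.38) and Gtf2e1 (-0.25) were not called. With the line as a replicate block Gtf2a2 passed (-0.38, adjusted p = 0.014), though its SE was 0.144 in both fits. In TFIIH, Gtf2h4 (-3.09 ± 0.21, adjusted p = 2.9e-05), Gtf2h3 (-1.48) and Gtf2h5 (-1.20) were lower, and Gtf2h1 (-0.39) and Gtf2h2 (0.30) were called only with the block (-0.38, adjusted p = 0.0061, and 0.30, adjusted p = 0.049).

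In Mediator 17 of 29 genes were lower and 7 higher. All but Med6 of the 6 head genes were lower, with Med11 at -3.29 ± 0.24, Med22 at -2.66, Med8 at -2.27 and Med17 at -1.29. The tail and middle subunits Med25 (-2.15), Med10 (-2.0), Med19 (-1.66), Med24 (-1.59) and Med21 (-1.55) were lower too. Med13l had 682 and 661 CPM in 4sU RNA and 246 and 176 CPM in total RNA (1.67 ± 0.19, adjusted p = 2.1e-04). Med26 (1.54), Med15 (1.5), Med27 (1.48), Med13 (1.31), Med1 (1.07) and the backbone Med14 (0.67) were higher as well. Med12 was lower (-1.31 ± 0.20), whereas Med12l had a ratio of 1.54 ± 0.68 that did not pass (adjusted p = 0.11). Scaled together with the total RNA libraries, Med12l had 120.4 CPM in 4sU RNA and 44.7 CPM in total RNA of plain WT, and 49.8 CPM in 4sU RNA and 14.5 CPM in total RNA of Tir1/BirA WT, higher in 4sU RNA in both lines. With the line as a replicate block it passed (1.58 ± 0.15, adjusted p = 7.7e-24), as did Med4 (-0.38, adjusted p = 0.020) and Med29 (-0.53, adjusted p = 0.025), both lower. A block fit of 4 libraries leaves little spread of its own, so these p-values rest mostly on spread borrowed across genes. That of Med12l does not measure the spread between the lines.

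The ratio of new to total RNA ran with the span of the gene. Across the 54 members Pearson's r between log10 span and log2 ratio was 0.72 and Spearman's rho 0.67, and over 12749 protein-coding genes the values were 0.70 and 0.72. These are descriptions across genes of the same 4 libraries, not independent replicates. For 23 members under 10 kb the median was -1.59, with 19 lower and 2 higher, namely Polr2k and Polr2l. For 20 members of 10 to 40 kb it was -0.80, with 12 lower and 1 higher, and for 11 members over 40 kb it was 1.48, with 9 higher and none lower. The share of all genes called in each span class was not counted, so these counts do not set the members apart. Whether reads of introns were counted is not given in the sources used here, and the part of unspliced RNA in these ratios was not tested.

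**Figure D5:**
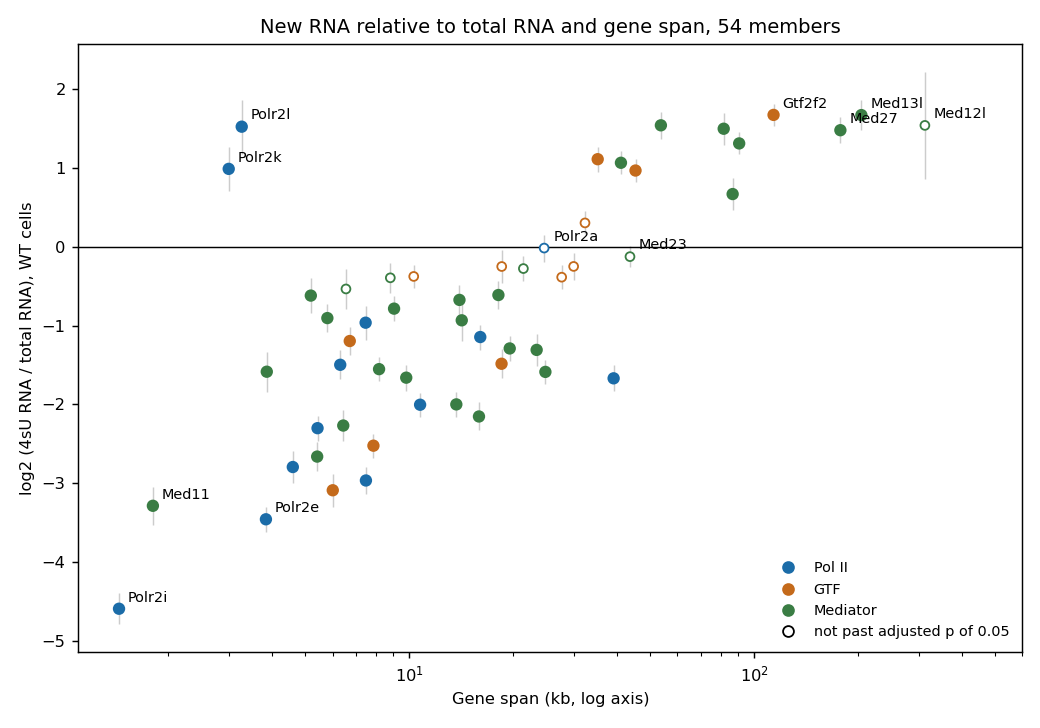
log2 ratio of 4sU to total RNA in WT cells (y axis, bars ± SE) against gene span in kb (x axis, log axis) for the 54 members, coloured by family, with open points for an adjusted p of 0.05 or more. Short genes lie low, down to Polr2i at -4.60, and long genes high, up to Gtf2f2 at 1.68, and Polr2k and Polr2l lie above the other short genes.

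None of 20 partners (kinases, cyclins and helicases of TFIIH and of the kinase module, the TATA-binding protein, and phosphatases and assembly factors of the polymerase) was called in any of the 4 mutants against WT with TMM scaling, their medians running from -0.02 to 0.04. Nor was any of 19 subunits particular to polymerases I and III, with medians from -0.07 to 0.06. In edgeR 1 to 4 partners and 0 to 4 of these subunits per mutant had an unadjusted p under 0.05, where 1208 to 3097 of all genes tested did. DESeq2 called 0 of either. With spike-ins, where 23.5% of all genes were lower in AID-Yeats2 cells and 24.7% in AID-Zzz3 cells, 5 of 20 partners were lower in AID-Yeats2 cells and 11 of 20 in AID-Zzz3 cells, among them the TFIIH kinase gene Cdk7 at -0.61 ± 0.23 (adjusted p = 0.041) and -0.45 ± 0.12 (adjusted p = 0.027), and 5 of 19 polymerase I and III subunits in each. In AID-Yeats2 against Supt7l-/- cells, where 8.95% of all genes were higher and 7.32% lower, the kinase module gene Cdk19 (0.28 ± 0.07, adjusted p = 0.014) and Rpap1 (0.34 ± 0.11, adjusted p = 0.044) were higher and Rpap2, a phosphatase of the Polr2a tail, lower (-0.32 ± 0.09, adjusted p = 0.028). DESeq2 called 1 of the 20 partners there. With spike-ins edgeR called 0, with 0 at an unadjusted p under 0.05, against 2357 of 14513 genes in all. Of the polymerase I and III subunits Polr1a was higher (0.22, adjusted p = 0.039) and Polr1d (-0.37, adjusted p = 0.0041) and Polr3d (-0.78, adjusted p = 0.045) were lower, of which Polr3d was also called with spike-ins (-0.90, adjusted p = 0.039). In WT 4sU RNA, where 30.4% of all genes were higher and 33% lower, 10 of 20 partners were higher and 4 lower than in total RNA, with Cdk19 at 2.13 ± 0.15 and Cdk8 at 1.42 ± 0.14, while the subunits of polymerases I and III had 3 of 19 higher and 11 lower.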

How the data were processed

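Newly synthesized and total RNA of mouse E14 cells were measured in 16 libraries. Per the file headers, the authors deposited read counts, not normalized, for each mouse and spike-in gene, a normalized signal (the count divided by a library factor), that signal per kilobase of median transcript length (another annotation, in bases), and their own log2 fold changes and p-values. The submitters' processing notes name STAR 2.5.3a, Bowtie2 2.2.8, DESeq2 1.16.1 and HTSeq 0.6.1p1. As builds they list ASM294v2, sacCer3 and BDGP6 beside mm10. The library kit marks strand, and whether counting used it is not given in the sources used here. Of the 54 members, 26 overlap another listed gene, 1 of them on the same strand (Med12 with Gm21986) and 1 with a gene of unknown strand (Polr2m with Gcom1).

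Raw counts were the start of every result not credited to the authors' deposited table. They were tested in edgeR 4.0.16 under R 4.3.3, with DESeq2 1.42.0 as an alternative, and tables and plots were made in Python 3.11.15. Genes below the limit of filterByExpr (minimum count 10) were left out. Scaling was by TMM, or by the effective size that TMM gives for spike-in genes whose count reached 10 in all 4sU libraries. The robust quasi-likelihood test was run on all genes, with a Benjamini-Hochberg adjusted p of 0.05 as the threshold. It was checked on simulated counts with the same spread for all genes and no difference between WT lines. That check does not cover the unlike WT lines of these data. Each mutant was set against WT of its project, and levels were scaled within a project. Replicates are separate clones or lines, so p-values cover the spread between 2 clones and 2 unlike WT lines. Reads without molecular identifiers make counting error a lower limit. Genes whose groups are said not to overlap were picked by p on the same values. The share of all genes whose groups separate in this way was not counted. Clone numbers have no WT counterpart. Same-numbered WT 4sU and total libraries come from the same line, and their deviations from group means had a correlation of 0.457 across 14494 genes.

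The alternatives were scaling to spike-ins or by the size factors of DESeq2, a filter at 50 counts or none, the test of DESeq2, a joint fit, a replicate block, and leaving out each library. The text names Polr2a, every member past the threshold (at most 25 per comparison), and the 3 with the smallest p where fewer than 5 passed. Some others are named after their values were seen, as examples of a role, a chromosome or a level. Members and lists were chosen with earlier results of these data known.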

Additional observations from a re-analysis of the deposited data

Results flagged for a closer look

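AID-Yeats2 and Supt7l-/- cells share their WT libraries, and the test of the difference between their changes passed for 4 members, each lower in AID-Yeats2 cells. The log2 differences were -0.85 for Med12l, -0.67 for Med4, -0.35 for Med26 and -0.24 for Gtf2e2 (edgeR's quasi-likelihood test, adjusted p = 4.9e-05, 0.0015, 0.010 and 0.049). Med12l differs through the Supt7l-/- clones, which stood at 85.0 and 78.4 CPM against 42.9 and 43.7 CPM in WT. Med26 and Gtf2e2 differ through the AID-Yeats2 clones. Med4 lies on distal chromosome 14, where 41 of 129 genes were called lower in this contrast. As a share of all genes, 7.32% were called lower, so 4 of 54 members is no more than the background.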

How the results depend on the processing

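Under spike-in scaling the count of lower members was 1 in AID-Tada3, 13 in AID-Yeats2 and 15 in AID-Zzz3 cells and 2 between AID-Yeats2 and Supt7l-/- cells, that of higher members in Supt7l-/- cells was 0, and medians were -0.18, -0.52, -0.38, -0.16 and, in Supt7l-/- cells, -0.35, with -0.14 for the AID-Yeats2 effect minus the AID-Zzz3 effect. Polr2a then stood at -0.42 in AID-Yeats2 and -0.19 in AID-Zzz3 cells and Polr2b at -0.15 in Supt7l-/- cells, each of opposite sign to TMM scaling. The lower count in AID-Yeats2 cells was 1 with at least 50 counts, 1 with DESeq2 and 0 in the joint fit, the higher count in Supt7l-/- cells 2 with no filter and 0 in the joint fit, and the count between both lines 2 in the joint fit. The median in AID-Zzz3 cells was -0.049 with no filter and -0.00039 with at least 50 counts. The cause of these shifts was not tested.

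With each library left out in turn, TMM counts ran from 0 to 1 higher and 0 to 2 lower in AID-Tada3 cells, 0 to 4 lower in AID-Yeats2 cells, 1 to 3 higher in Supt7l-/- cells, 0 to 1 lower in AID-Zzz3 cells and 2 to 2 lower between AID-Yeats2 and Supt7l-/- cells. Medians ran from -0.054 to -0.0021, from -0.060 to -0.013, from -0.039 to 0.036, from -0.019 to 0.0090 and from -0.066 to 0.017 in these contrasts, from -0.050 to 0.019 for the AID-Yeats2 minus AID-Zzz3 effects, and from -0.95 to -0.73 for 4sU against total RNA. With spike-ins, lower counts ran from 0 to 4 (AID-Tada3), 0 to 3 (AID-Yeats2), 0 to 13 (Supt7l-/-) and 1 to 20 (AID-Zzz3), and medians from -0.30 to -0.085, -0.69 to -0.40, -0.54 to -0.18 and -0.41 to -0.31. A group left with a lone library takes its spread from the rest of the fit.

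Polr2a in 4sU against total RNA turned to 0.043 with no filter, and to 0.012, 0.040 and 0.14 without the plain 4sU, Tir1/BirA 4sU and plain total library, with -0.25 without the Tir1/BirA total library. WT 4sU against total RNA with the line as a replicate block gave 14 higher and 35 lower. The clone number as a block gave 0 higher and 4 lower between AID-Yeats2 and Supt7l-/- cells, but same-numbered clones share only a number (correlation 0.037). The line block made 6 further calls in 4sU against total RNA (Med12l, Gtf2h1, Gtf2h2, Gtf2a2, Med4 and Med29) and ended none. Calls of the line block rest mostly on spread borrowed across genes, and Gtf2a2 passed with an SE of 0.144 in both fits. The clone block changed no call of a named member. Of the results for whole groups of members, 201 of 267 settings left the value the same. Depth limits members with few counts, such as Med11 and Polr2i in 4sU RNA, whose 95% intervals exceed 1.5-fold. In total RNA the lowest member was Polr2l, at 10 and 17 counts.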
